A study of Mus musculus with 24 samples.

Results

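The type I interferon-stimulated antiviral genes were followed through the response of mouse macrophages to lipopolysaccharide (LPS), with and without an inhibitor of bromodomains. The members were 50 symbols listed by known function, and each was taken from the array by its annotated symbol. Of these, 44 were on the array and 42 passed the filter on dim probes, among 8203 features tested. The symbols Ddx58 and Rigi name the same gene, which was present as Ddx58. Rigi, Znfx1, Herc6, Dtx3l, Rnf213 and Ifi44 were not analysed here. The 2 members that did not pass were Ifit1 and Xaf1, and their values are given below.

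The cells were macrophages from the bone marrow of female C57BL/6 mice aged 6 weeks, profiled on 24 single-colour Illumina bead arrays. The inhibitor-treated cells had received LPS for 1, 2 or 4 h or were taken at 0 h, and control cells were taken at the same times without the inhibitor, with 3 biological replicates in each of the 8 groups. The labels call the treated samples BET, after the bromodomain protein family, and no source used here names the compound, its dose, the dose of LPS or when the compound was added. The study asked how a bromodomain inhibitor alters the expression response to LPS.

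LPS, a component of the wall of Gram-negative bacteria, is bound by Tlr4, whose adaptor Ticam1 leads through Tbk1 and Irf3 to transcription of Ifnb1, the gene of interferon beta. Secreted interferon beta binds the receptor of Ifnar1 and Ifnar2 on the same and neighbouring cells, and a complex that holds Stat2 and Irf9 then binds the interferon-stimulated response element (ISRE) in the promoters of the antiviral genes. BET proteins bind acetylated lysines of chromatin through their bromodomains, and inhibitors of the family fill that pocket. Some antiviral genes can also be switched on by Irf3 directly, before any interferon is made.

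Of the members with a promoter window whose values are given array by array below, 6 had an ISRE match in it, and those promoters are printed to show where that element lies. The windows are RefSeq's on GRCm38.p6, from 250 bases before to 50 bases after the annotated start of the gene, read 5′ to 3′ along the gene. Capitals mark every match to the ISRE letters (GAAA, any 2 bases, GAAA) on either strand, overlapping matches included.
Ifit3, chr19:34583279-34583578, plus strand: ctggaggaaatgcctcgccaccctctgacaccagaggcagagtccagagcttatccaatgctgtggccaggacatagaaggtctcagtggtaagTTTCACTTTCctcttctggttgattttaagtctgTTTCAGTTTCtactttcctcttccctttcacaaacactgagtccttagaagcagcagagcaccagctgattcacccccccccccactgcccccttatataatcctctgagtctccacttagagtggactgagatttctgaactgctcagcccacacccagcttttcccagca
Isg15, chr4:156200769-156201068, minus strand: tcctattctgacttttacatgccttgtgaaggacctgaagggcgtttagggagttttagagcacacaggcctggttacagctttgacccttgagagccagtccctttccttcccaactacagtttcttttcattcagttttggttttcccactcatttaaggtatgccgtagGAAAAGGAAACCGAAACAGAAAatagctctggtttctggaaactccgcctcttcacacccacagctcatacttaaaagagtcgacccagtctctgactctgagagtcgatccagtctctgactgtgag
Ifih1, chr2:62646206-62646505, minus strand: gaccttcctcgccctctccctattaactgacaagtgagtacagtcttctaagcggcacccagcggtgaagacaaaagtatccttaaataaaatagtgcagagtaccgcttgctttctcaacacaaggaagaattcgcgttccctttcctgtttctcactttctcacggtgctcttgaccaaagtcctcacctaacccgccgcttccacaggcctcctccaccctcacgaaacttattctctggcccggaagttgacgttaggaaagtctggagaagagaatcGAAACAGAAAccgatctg
Rsad2, chr12:26456403-26456702, minus strand: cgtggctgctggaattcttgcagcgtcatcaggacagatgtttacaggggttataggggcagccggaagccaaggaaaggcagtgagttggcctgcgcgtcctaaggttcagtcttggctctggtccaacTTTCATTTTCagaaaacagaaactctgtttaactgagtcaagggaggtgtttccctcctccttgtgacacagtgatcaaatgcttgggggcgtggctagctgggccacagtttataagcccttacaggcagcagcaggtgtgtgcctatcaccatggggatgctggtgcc
Trim21, chr7:102565433-102565732, minus strand: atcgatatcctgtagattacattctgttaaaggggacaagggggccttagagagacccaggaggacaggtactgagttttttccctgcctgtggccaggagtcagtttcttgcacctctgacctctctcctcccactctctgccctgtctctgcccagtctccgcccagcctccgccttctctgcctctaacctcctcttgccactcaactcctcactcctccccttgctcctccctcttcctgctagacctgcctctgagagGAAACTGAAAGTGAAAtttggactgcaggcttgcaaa
Oas1a, chr5:120907476-120907775, minus strand: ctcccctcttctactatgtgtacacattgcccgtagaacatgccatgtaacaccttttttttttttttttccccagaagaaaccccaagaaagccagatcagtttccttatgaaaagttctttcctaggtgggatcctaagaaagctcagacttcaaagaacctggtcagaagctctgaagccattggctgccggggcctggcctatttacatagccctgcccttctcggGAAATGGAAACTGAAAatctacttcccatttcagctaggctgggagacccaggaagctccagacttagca

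In Ifit3 the 2 matches began 156 and 122 bases before the start of the gene, on the opposite strand to the gene. In Isg15 the 3 overlapping matches began 78, 72 and 66 bases before the start. The single match in Rsad2 began 120 bases before the start, on the opposite strand. In Oas1a the 2 overlapping matches began 20 and 14 bases before it. The Ifih1 match began 32 bases after the start and the Trim21 matches 13 and 19 bases after it, inside the transcribed part. A promoter window was found for 35 of the 44 members on the array. Dhx58, Zbp1, Oas2, Mx1, Mx2, Usp18, Parp9, Parp14 and Rtp4 had none and were not searched. The ISRE letters were present in 15 of these 35 (42.9%), against 3.99% of all 27025 genes with a window. The GAS letters (TTC, any 3 bases, GAA) were present in 8 of the 35 (22.9%), against 9.55% of all genes. The NF-kB consensus, searched on both strands, was present in 3 of the 35 (8.57%), against 5.14% of all genes. Matches of different elements may overlap, and a match describes letters in these windows, not a measured binding site.

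The deposited values are log2 intensities, and every level below is on that scale. A floor was set at 6.455, the 99th percentile of 1305 probes for olfactory and vomeronasal receptors, genes that macrophages are not known to use. The 4 macrophage markers measured (Adgre1, Itgam, Lyz2 and Fcgr1) lay above the floor on all 24 arrays. The 3 T cell markers and the 2 B cell markers measured lay below it on all 24, as did 3 of 4 markers of plasmacytoid dendritic cells, the interferon-rich cell type, with Tcf4 the exception. Of the other markers measured, Itgax (conventional dendritic cells) and Prf1 (NK cells) lay above the floor on all 24 arrays, Mpo (neutrophils) on 19 and Col1a1 (fibroblasts) on 12, while the rest lay above it on 0 to 3; their part in the results was not tested. The mean level of the macrophage markers lay between 10.88 and 11.33 on inhibitor-treated arrays and between 11.00 and 11.55 on control arrays. Fewer responding cells and less RNA in each cell cannot be told apart in such bulk samples. Changes are differences of log2 group means ± standard error (3 arrays against 3), and a gene was called when limma's p, adjusted by Benjamini-Hochberg over the 8203 features, was under 0.05.

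Arrays of replicate 1 stood apart from the others, and the members showed it most clearly after LPS. The median level of the 42 members at 2 h was 9.31, 8.41 and 8.22 in inhibitor-treated replicates 1, 2 and 3, against 10.68, 9.28 and 9.33 in control replicates 1, 2 and 3. Replicate 1 was thus the highest in both treatments, and the treated replicate 1 overlapped control replicates 2 and 3. At 4 h the medians were 11.30, 10.64 and 10.34 in treated cells, against 11.76, 11.24 and 11.30 in control cells. At 0 h they lay between 7.64 and 7.99 in treated cells and between 7.81 and 7.96 in control cells. Because replicates of the same number deviated together, fits were also made with the replicate number as a block, and without the 8 arrays of replicate 1. Values of the blocked fit are given where they change a call between treatments, and for some counts. For the fit without replicate 1, counts of members are given between treatments after LPS, but values for some genes only. A missing value of that fit does not mean that the call was unchanged.

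LPS raised nearly the whole set by 4 h in both treatments, while fewer members passed at 2 h in inhibitor-treated cells than in control cells. The filter on dim probes favours such rises, since a member could enter through an LPS group alone. Ifih1, Oas1a, Mx1, Mx2 and Isg20 lay below the floor on all 0 h arrays and entered in this way. Ifit1 and Xaf1, low in every group, are not in these counts. At 4 h against 0 h, 39 of 42 members were called higher in treated cells, with a median log2 change of 1.92, and 19.7% of all features were called higher. In control cells 40 of 42 were called higher at 4 h, with a median of 2.80 and 19.8% of all features called higher. With the replicate block 42 of 42 were called higher there, and 23.3% of all features. No member was called lower at 4 h in either treatment, nor had one an unadjusted p under 0.05 in that direction, while 26.7% of all features were called lower in treated cells and 32.7% in control cells. The median change of all features was -0.06 in treated cells and -0.14 in control cells. The level peaked at 4 h in 41 of 42 members in treated cells and in 42 of 42 in control cells.

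At 2 h, 11 members were called higher than at 0 h in treated cells, with a median change of 0.28 (7.4% of features), and 7 were without treated replicate 1 at 2 h. In control cells 24 members were called higher, with a median of 0.97 (10% of features), and 35 were called with the replicate block (14% of features), against 12 in treated cells with the block (11.8% of features). Of the 22 members first called at 2 h in control cells, 8 were first called at 2 h and 14 at 4 h in treated cells. At 1 h, 2 members were called higher in each treatment, Isg15 and Trex1, with 1.73% of features called in treated cells and 2.15% in control cells. The replicate block gave 2 in treated cells (2.73% of features) and 3 in control cells (3.35% of features). None was called lower at 1 h or 2 h by limma, where the features called lower were 1.48% and 10.5% in treated cells and 1.06% and 15.2% in control cells; at an unadjusted p under 0.05, 1 member was lower in treated cells at 1 h. With the replicate block Ifitm3, which blocks virus entry at membranes, was called lower in treated cells at 1 h (-0.61, adjusted p = 0.0371, 4.06% of features) and Pml at 2 h (-0.58, adjusted p = 0.0303, 17.9% of features). Isg15 encodes a ubiquitin-like protein, and its rise at 1 h was 1.39 ± 0.33 in treated cells and 2.40 ± 0.33 in control cells. Trex1 encodes an exonuclease that degrades cytosolic DNA, and it changed by 1.06 ± 0.27 in treated cells and 1.61 ± 0.27 in control cells. In treated cells neither call held without any one of 5 arrays, namely all 3 at 0 h and replicates 1 and 3 at 1 h, with adjusted p of 0.0506 to 0.162 for Isg15 and 0.0615 to 0.216 for Trex1.

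**Figure D1:**
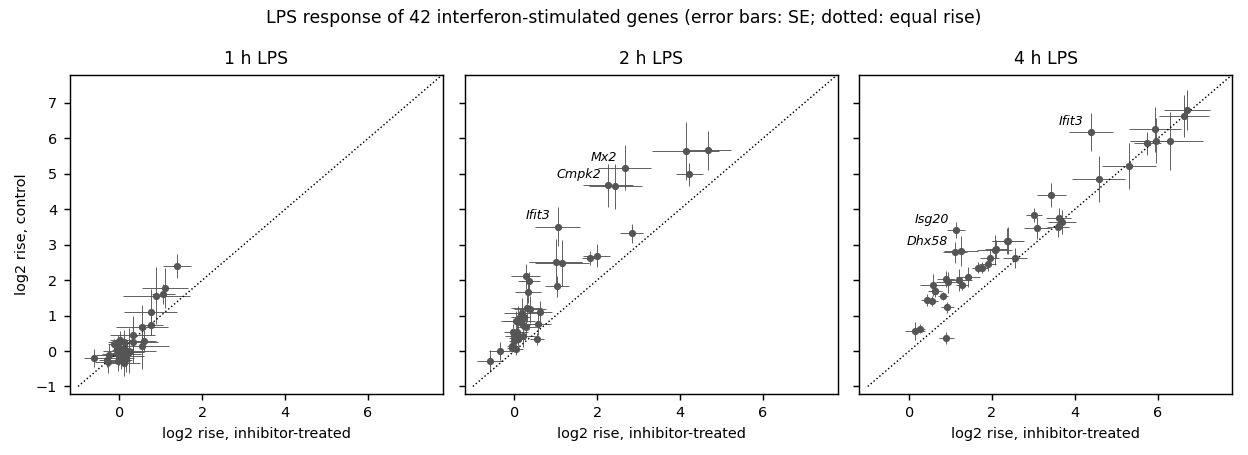
Log2 rise over 0 h in inhibitor-treated cells (horizontal axis) and in control cells (vertical axis) at 1, 2 and 4 h of LPS, 1 point per member with standard errors, and a dotted line where both rises are equal. At 2 h the median rise was 0.28 in treated cells and 0.97 in control cells, and at 4 h it was 1.92 in treated cells and 2.80 in control cells, with Ifit3, Isg20 and Dhx58 furthest above the line.

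The inhibitor lowered a share of the antiviral genes at 2 h and 4 h and none was called before that. At 2 h, 13 of 42 members were called lower and 0 higher (25 and 0 at an unadjusted p under 0.05), while 4.22% of all features were called lower and 2.72% higher. At 4 h, 19 of 42 were called lower and 0 higher (23 and 1 at an unadjusted p under 0.05), while 10.2% of all features were called lower and 12.6% higher. The median change of the members was -0.75 at 2 h and -0.66 at 4 h, against 0.04 over all features at both times. The change was below 0 in 40 of 42 members at 2 h, Bst2 and Trim25 excepted, and in 39 of 42 at 4 h, Mx2, Trex1 and Trim25 excepted.

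With the replicate block, 27 members were called lower at 2 h (7.77% of features), and 26 were called lower and 1 higher at 4 h (15.4% and 19.7% of features). Without the arrays of replicate 1, 23 members were called lower at 2 h and 27 at 4 h, with 1 called higher at 4 h. Since the share of all features is not given for that fit, its counts are not set against the other genes. The member called higher in both of these fits was Trim25. The count at 2 h was 5 without control replicate 1, 5 without treated replicate 2 and 5 without treated replicate 3 of that time. Fitted on the 6 arrays of 2 h alone, only Samd9l of the 13 was called there, and the other 12 had adjusted p between 0.0748 for Ifit3 and 0.268 for Parp9.

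At 0 h limma called no member between treatments, with a median change of -0.06 and 0.158% of features called higher and 0% lower, and 0 members had an unadjusted p under 0.05. At 1 h it called none either, with a median of 0.00 and 0.524% of features called higher and 0.78% lower; at an unadjusted p under 0.05 it had 2 members lower, Isg15 and Rtp4, and 1 higher, Bst2. Isg15 had 8.73, 7.33 and 7.78 in treated cells at 1 h, against 9.81, 8.48 and 8.88 in control cells. Its treated value was the lower one in each of the 3 replicate pairs, although the groups overlapped. The change was -1.11 ± 0.33 with an adjusted p of 0.152, and an adjusted p of 0.00669 with the replicate block, the only member called at 1 h in that fit (1.72% of features called lower). Without replicate 1, 3 members were called lower at 1 h: Isg15 (adjusted p = 0.00397), Oasl1 (0.0358) and Rsad2 (0.0452). No share of all features is given for that fit.

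**Figure D2:**
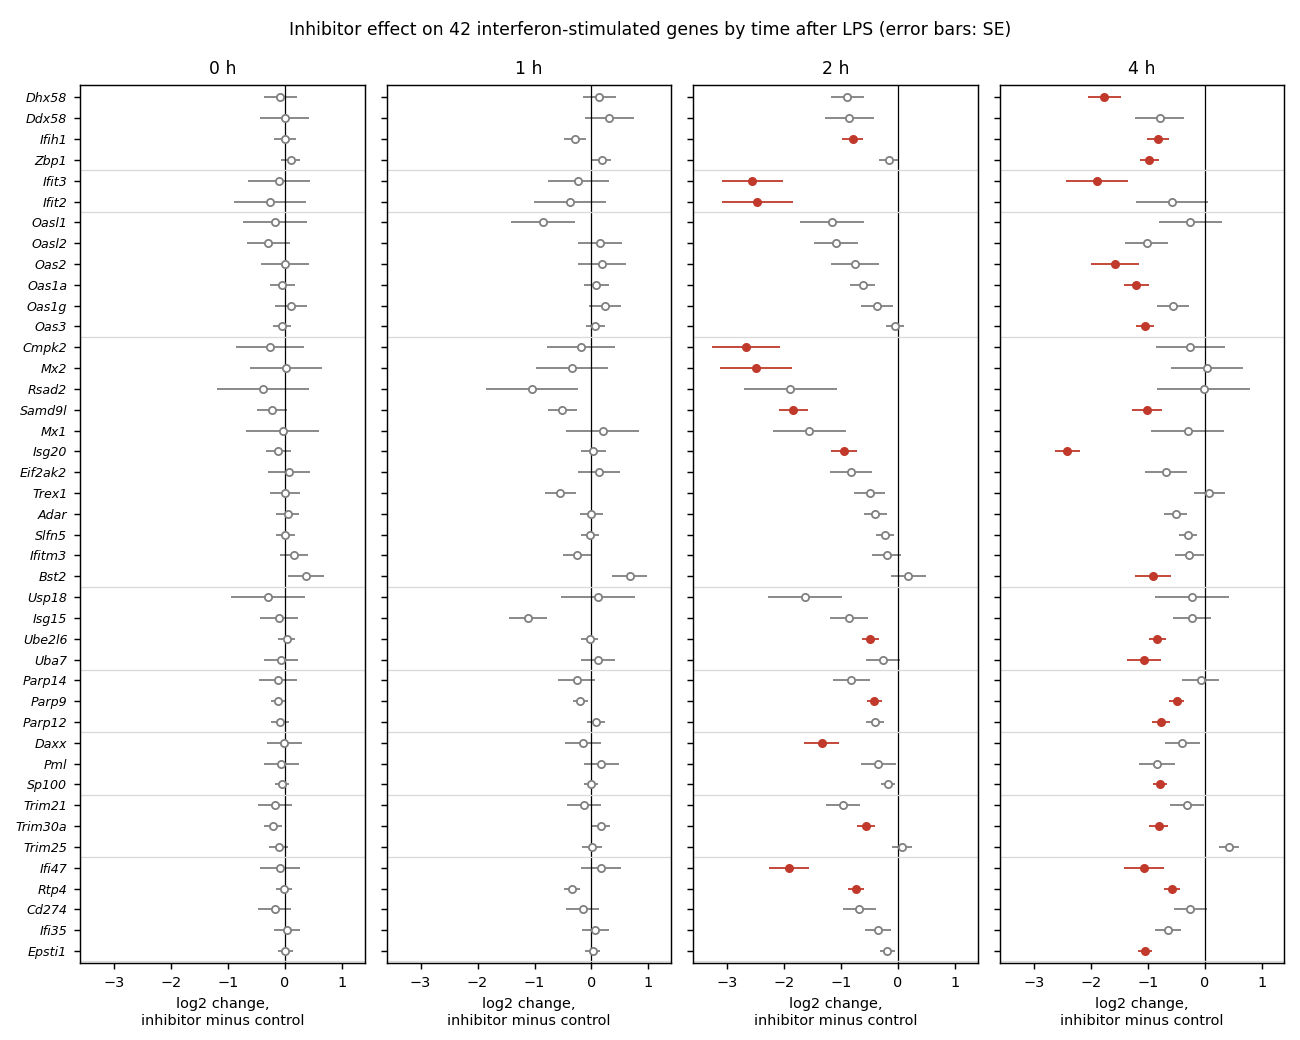
Change between inhibitor-treated and control cells (log2, horizontal axis, ± standard error) at 0, 1, 2 and 4 h after LPS for the 42 members, grouped by role from sensors at the top to others at the bottom; filled red points passed an adjusted p of 0.05. No point is filled at 0 or 1 h, 13 are at 2 h and 19 at 4 h, and all filled points lie below 0.

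Among the sensors of viral nucleic acid, the 3 called lower at 4 h were Ifih1, Dhx58 and Zbp1, while 10.2% of all features were called lower. Ifih1 encodes MDA5, a sensor of long double-stranded RNA. It had 8.44, 7.90 and 8.002 in treated cells at 2 h, against 9.29, 8.72 and 8.74 in control cells. The levels at 4 h were 9.08, 9.42 and 9.41 in treated cells, against 9.81, 10.15 and 10.42 in control cells. The groups did not overlap at either time, and the fall was about equal, -0.80 ± 0.19 at 2 h and -0.82 ± 0.19 at 4 h, with adjusted p of 0.0101 and 0.00309. Dhx58 encodes LGP2, a relative of MDA5 that regulates both RNA sensors. It had 9.51, 8.79 and 8.86 in treated cells at 4 h, against 11.01, 10.81 and 10.62 in control cells. Every treated array was below every control array, and the fall of -1.76 ± 0.29 (adjusted p = 0.000177) was a 3.39-fold difference. At 2 h Dhx58 had changed by -0.89 ± 0.29, with an adjusted p of 0.0782 and 0.000954 with the replicate block. Zbp1, a sensor of Z-form nucleic acid that can start cell death, fell at 4 h by 0.97 ± 0.17, with an adjusted p of 0.000302. Its change at 2 h had been -0.16 ± 0.17 (adjusted p = 0.693). Ddx58, which encodes the RNA sensor RIG-I, changed by -0.86 at 2 h and -0.79 at 4 h, with adjusted p of 0.311 and 0.22, and of 0.00382 and 0.00307 with the block. The Ifih1 call at 2 h was lost without control replicate 1 (adjusted p = 0.0829), treated replicate 2 (0.0604) or treated replicate 3 (0.052).

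The IFIT proteins bind viral RNA and hold back its translation. Ifit2 had 11.72, 10.25 and 8.93 in treated cells at 2 h, against 13.57, 12.64 and 12.12 in control cells. The groups did not overlap, and the change was -2.47 ± 0.63 (adjusted p = 0.0185), a 5.55-fold difference. At 4 h Ifit2 had 14.03, 13.78 and 13.60 in treated cells, against 14.41, 14.38 and 14.33 in control cells, a change of -0.57 ± 0.63 that did not pass (adjusted p = 0.589). Ifit3 was called at both times. It had 9.25, 8.25 and 7.49 in treated cells at 2 h, against 12.07, 10.64 and 9.95 in control cells, a fall of 2.56 ± 0.54 (adjusted p = 0.0048). At 4 h it had 12.43, 11.31 and 11.28 in treated cells, against 14.04, 13.26 and 13.38 in control cells. The groups remained apart, with a fall of 1.89 ± 0.54 (adjusted p = 0.0156). The probe of Ifit1 lay below the floor on all 24 arrays, between 5.60 and 6.28, while those of Ifit2 and Ifit3 passed 13 in control cells at 4 h. At 2 h the 2 other Ifit3 probes that passed the filter changed by -1.59 and -1.44 and were not called (adjusted p = 0.0582 and 0.0911), and at 4 h both were, with -2.25 (0.00218) and -2.24 (0.00228). Whether the Ifit3 probe also reads its near copy Ifit3b was not tested. The Ifit2 call at 2 h was lost without control replicate 1 (adjusted p = 0.11), treated replicate 2 (0.0578) or treated replicate 3 (0.137), and the Ifit3 call at 4 h without the same arrays of that time (0.0713, 0.0618 and 0.067).

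The OAS family makes 2′-5′ oligoadenylate, which activates the ribonuclease RNase L, and 3 of its 6 members were called lower at 4 h and 0 at 2 h, where limma gave 2 of them, Oas1a and Oasl2, an unadjusted p under 0.05. In the blocked fit 3 were called lower at 2 h, Oas1a (-0.62, adjusted p = 0.00509), Oas2 (-0.76, adjusted p = 0.0207) and Oasl2, and 5 at 4 h, all but Oasl1. Of all features, the fit without a block called 4.22% lower at 2 h and 10.2% at 4 h, and the blocked fit 7.77% and 15.4%. At 2 h Oas1a lay near the floor, at 6.61, 6.18 and 6.08 in treated cells, against 7.52, 6.61 and 6.61 in control cells. Oas2 had 8.84, 7.93 and 8.30 in treated cells at 4 h, against 10.37, 9.64 and 9.80 in control cells. Oas1a had 7.68, 6.92 and 7.01 in treated cells, against 8.82, 8.11 and 8.27 in control cells. In both genes the highest treated array lay below the lowest control array. The falls were 1.58 ± 0.42 for Oas2 (adjusted p = 0.00953) and 1.20 ± 0.22 for Oas1a (adjusted p = 0.000557). Oas3 averaged 6.67 ± 0.17 in treated cells and 7.72 ± 0.20 in control cells at 4 h (SD, n = 3 each), a fall of 1.05 ± 0.16 (adjusted p = 5.88e-05). At 2 h Oas3 was at or near the floor in both, with means of 6.27 in treated cells and 6.33 in control cells.

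Oasl1, whose mouse protein restrains translation of Irf7, had the largest LPS rise of the family at 4 h in control cells. It had 12.39, 10.90 and 10.67 in treated cells at 2 h, against 13.18, 12.08 and 12.18 in control cells, with treated replicate 1 above control replicates 2 and 3. The values at 4 h were 13.60, 13.39 and 13.10 in treated cells, against 13.66, 13.48 and 13.70 in control cells. The changes were -1.16 ± 0.56 at 2 h and -0.25 ± 0.56 at 4 h, with adjusted p of 0.284 and 0.817, and without replicate 1 the change at 2 h was -1.35 (adjusted p = 0.000172). Oasl2 changed by -1.09 and -1.02, with adjusted p of 0.0988 and 0.0608, and of 0.00274 and 0.00185 with the block. Oas1g did not pass at either time (-0.37 and -0.55), and its adjusted p at 4 h was 0.178, and 0.0107 with the block. A dimmer probe of each of these genes was called at 4 h when all probes that passed the filter were fitted, with -1.15 for Oasl2 (adjusted p = 0.00119) and -0.77 for Oas1g (adjusted p = 2.6e-05, mean level 6.35 over all arrays). In the same fit another Oas1g probe, with a mean level of 9.2, changed by -0.54 at 4 h and was not called (adjusted p = 0.351). The Oas2 call at 4 h was lost without control replicate 1 (adjusted p = 0.052). Whether the probes of the similar genes Oas1a and Oas1g read each other was not tested.

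Of 12 other direct effectors, 4 were called lower at 2 h and 3 at 4 h, while 4.22% and 10.2% of all features were. Cmpk2 encodes a mitochondrial nucleotide kinase and lies beside Rsad2 in the genome. It had 11.55, 8.62 and 8.38 in treated cells at 2 h, against 13.25, 11.63 and 11.70 in control cells. Mx2 belongs to a family of dynamin-like GTPases, and whether it makes a working protein in these mice was not tested. It had 11.00, 8.11 and 7.69 in treated cells, against 12.06, 11.04 and 11.17 in control cells. In both genes treated replicate 1 stood well above the other treated arrays and just below the control range. The falls were 2.67 ± 0.60 for Cmpk2 (adjusted p = 0.00694), 6.39-fold, and 2.49 ± 0.63 for Mx2 (adjusted p = 0.0174), 5.62-fold. By 4 h the levels met. Cmpk2 had 14.21, 13.80 and 13.69 in treated cells, against 14.26, 14.001 and 14.20 in control cells. Mx2 had 12.09, 12.29 and 12.28 in treated cells, against 12.10, 12.15 and 12.30 in control cells. The groups overlapped in both genes, with changes of -0.25 ± 0.60 (adjusted p = 0.83) and 0.04 ± 0.63 (adjusted p = 0.979). The 2 h calls were lost without control replicate 1 (adjusted p = 0.0573 for Cmpk2 and 0.0961 for Mx2), treated replicate 2 (0.0501 and 0.1) or treated replicate 3 (0.0582 and 0.127).

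Isg20 encodes an exonuclease that degrades RNA, and its measured levels lay further apart at 4 h than at 2 h. At 2 h it was below the floor on all treated arrays, at 6.22, 6.03 and 6.27, against 7.93, 6.72 and 6.73 in control cells (adjusted p = 0.0087). By the control mean of 7.13 it was at least 1.59-fold lower in treated cells, but control replicates 2 and 3 lay near the floor. At 4 h it had 7.33, 7.27 and 6.88 in treated cells, against 9.79, 9.52 and 9.39 in control cells. No array of one group reached the other, and the fall of 2.41 ± 0.22 (adjusted p = 1.47e-07) was the largest of any member at 4 h, 5.3-fold. Samd9l, whose human counterpart restricts translation, had 11.54, 10.62 and 10.60 in treated cells at 2 h, against 13.32, 12.52 and 12.45 in control cells. Its groups did not overlap, and it fell by 1.84 ± 0.26 at 2 h, with an adjusted p of 0.000103. The fall at 4 h was 1.01 ± 0.26 (adjusted p = 0.00727). Bst2, or tetherin, which holds budding virus at the cell surface, fell at 4 h by 0.91 ± 0.31 (adjusted p = 0.0392), although 1 treated array reached the control range. The Bst2 call was lost without control replicate 1 (adjusted p = 0.142), control replicate 2 (0.112), treated replicate 2 (0.195) or treated replicate 3 (0.142).

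The remaining effectors did not pass at either time. Rsad2, which encodes the radical-SAM enzyme viperin, had 14.58, 12.12 and 11.59 in treated cells at 2 h, against 15.07, 14.52 and 14.38 in control cells. Treated replicate 1 lay inside the control range and the other 2 more than 2 units below it. The change was -1.89 ± 0.81 (adjusted p = 0.207), and the adjusted p was 0.0311 with the block and 1.2e-05 without replicate 1, where the change was -2.59. Mx1, whose allele in C57BL/6 mice encodes no working protein, changed by -1.56 ± 0.64 at 2 h (adjusted p = 0.176, and 0.0153 with the block). Eif2ak2, the kinase PKR that stops translation, changed by -0.82 at 2 h and -0.68 at 4 h, with adjusted p of 0.237 and 0.213, and of 0.0158 and 0.0224 with the block. Adar, which edits double-stranded RNA, changed by -0.40 and -0.51, with adjusted p of 0.309 and 0.0776, and of 0.0476 and 0.00519 with the block, and a dimmer Adar probe was called at 4 h with -0.65 (adjusted p = 0.0118). Another dimmer Adar probe changed by -0.5 at 4 h and was not called (adjusted p = 0.115). Trex1, Ifitm3 and Slfn5 passed in neither fit at 2 h or 4 h. The levels of Rsad2, Cmpk2, Ifit2, Usp18 and Cd274 passed a group mean of 14 in control cells at 4 h, near the highest deposited value of 15.172, where arrays can compress differences. Rsad2 also passed 14 in control cells at 2 h (mean 14.66) and in treated cells at 4 h (mean 14.92).

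**Figure D3:**
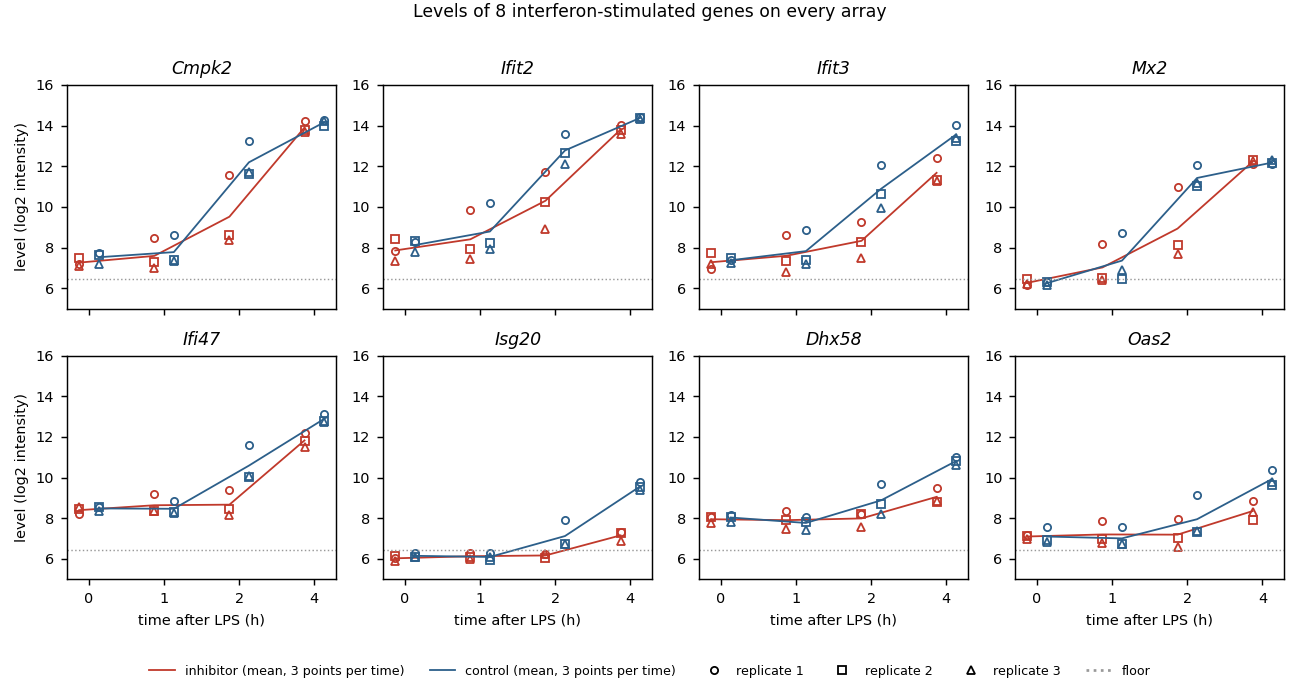
Levels (log2 intensity, vertical axis) of 8 members at 0, 1, 2 and 4 h after LPS on every array, with inhibitor-treated cells left of control cells at each time, lines through the means of 3 replicates and the floor dotted. Cmpk2, Ifit2 and Mx2 lie apart at 2 h and near each other at 4 h, while Isg20, Dhx58 and Oas2 lie furthest apart at 4 h.

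The ISG15 system attaches the protein Isg15 to others through the enzymes Uba7 and Ube2l6, and Usp18 removes it. Isg15 itself had 11.18, 10.64 and 10.50 in treated cells at 2 h, against 12.12, 11.34 and 11.44 in control cells. At 4 h it had 12.74, 11.84 and 12.31 in treated cells, against 12.76, 12.19 and 12.61 in control cells. The groups were apart at 2 h and overlapped at 4 h, with changes of -0.86 ± 0.33 (adjusted p = 0.144, and 0.0136 with the block) and -0.22 ± 0.33 (adjusted p = 0.71). The conjugating enzymes were called at 4 h, Uba7 with a fall of 1.07 ± 0.30 (adjusted p = 0.012) and Ube2l6 with a fall of 0.83 ± 0.15 (adjusted p = 0.000356). Ube2l6 had also fallen by 0.49 ± 0.15 at 2 h (adjusted p = 0.0488). Usp18 had 11.72, 9.08 and 8.35 in treated cells at 2 h, against 12.70, 10.70 and 10.64 in control cells, a change of -1.63 ± 0.65 (adjusted p = 0.159, and 0.0158 with the block). Its levels at 4 h averaged 13.87 ± 0.37 in treated cells and 14.10 ± 0.19 in control cells (SD, n = 3 each). The Ube2l6 call at 2 h was lost without any one of control replicates 1 and 2 or any treated replicate (adjusted p = 0.0577 to 0.256), and the Uba7 call without control replicate 1 (0.0731) or treated replicate 3 (0.0547).

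Of the ADP-ribosylating enzymes Parp9, Parp12 and Parp14, 1 was called lower at 2 h and 2 at 4 h, and of the proteins of nuclear bodies, Pml, Sp100 and Daxx, 1 was called lower at each time. Of all features, 4.22% were called lower at 2 h and 10.2% at 4 h. Parp14 had 12.65, 11.46 and 11.51 in treated cells at 2 h, against 13.44, 12.21 and 12.43 in control cells. At 4 h it had 13.68, 13.50 and 13.54 in treated cells, against 13.78, 13.43 and 13.71 in control cells. The groups overlapped at both times, and the changes were -0.82 ± 0.33 (adjusted p = 0.167, and 0.00547 with the block) and -0.07 ± 0.33 (adjusted p = 0.924). Parp12 changed by -0.41 ± 0.16 at 2 h (adjusted p = 0.133, and 0.03 with the block) and fell by 0.77 ± 0.16 at 4 h (adjusted p = 0.00109). Parp9 fell by 0.42 ± 0.13 at 2 h and by 0.49 ± 0.13 at 4 h, with adjusted p of 0.0483 and 0.00762. Its probe lay near the floor, with a mean of 6.39 over all arrays. At 4 h it averaged 6.44 in treated cells and 6.93 in control cells, so the size of its falls is uncertain. The Parp9 call at 2 h was lost without any one of 5 arrays, all but control replicate 2 (adjusted p = 0.0582 to 0.293), and without replicate 1 altogether (0.409), and its call at 4 h without control replicate 1 (0.0533).

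Daxx, a histone chaperone of nuclear bodies, had 9.98, 8.68 and 8.56 in treated cells at 2 h, against 11.34, 9.81 and 10.09 in control cells. Treated replicate 1 overlapped the control range, and the fall was 1.34 ± 0.31 (adjusted p = 0.0101). At 4 h Daxx had 11.87, 11.92 and 11.71 in treated cells, against 12.12, 12.19 and 12.37 in control cells, a change of -0.39 ± 0.31 (adjusted p = 0.43). Sp100 was called at 4 h alone, with a fall of 0.78 ± 0.12 (adjusted p = 5.57e-05) after a change of -0.18 ± 0.12 at 2 h (adjusted p = 0.486). Pml, the scaffold of the bodies, changed by -0.84 ± 0.31 at 4 h (adjusted p = 0.0572, and 0.00197 with the block). The Daxx call at 2 h was lost without control replicate 1 (adjusted p = 0.0765), treated replicate 2 (0.0626) or treated replicate 3 (0.0752).

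Of the 3 ubiquitin ligases tested, Trim30a, which in mice restrains Toll-like receptor signalling, was called lower at both times, by 0.57 ± 0.16 at 2 h and 0.81 ± 0.16 at 4 h, with adjusted p of 0.0301 and 0.000843. Trim21, a cytosolic receptor for antibody-coated virus, had 9.85, 8.36 and 8.80 in treated cells at 2 h, against 10.88, 9.33 and 9.71 in control cells. The 4 h levels were 11.45, 11.57 and 11.73 in treated cells, against 11.80, 11.77 and 12.08 in control cells. Its groups overlapped at 2 h and were apart by a small gap at 4 h, with changes of -0.97 ± 0.30 (adjusted p = 0.0604, and 0.0274 with the block) and -0.31 ± 0.30 (adjusted p = 0.54). Dimmer Trim21 probes that passed the filter, with mean levels of 6.43 and 6.72 around the floor, were not called. They changed by 0 and -0.12 at 2 h (adjusted p = 0.989 and 0.753) and by 0.01 and -0.35 at 4 h (0.973 and 0.0862). Trim25, which ubiquitinates RIG-I, had 8.23, 8.29 and 8.20 in treated cells at 4 h, against 7.67, 7.92 and 7.84 in control cells, a change of 0.43 ± 0.17 (adjusted p = 0.0742, and 0.0206 with the block). The Trim30a call at 2 h was lost without control replicate 1 (adjusted p = 0.207) or any one treated replicate (0.0661 to 0.0988), and without replicate 1 altogether (0.197).

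Among the other members, Ifi47, an immunity-related GTPase, had 9.38, 8.45 and 8.19 in treated cells at 2 h, against 11.63, 10.05 and 10.10 in control cells. Its level in treated cells at 2 h was close to that at 0 h, which averaged 8.40 ± 0.18 in treated cells and 8.49 ± 0.11 in control cells (SD, n = 3 each). By 4 h its levels were 12.17, 11.82 and 11.50 in treated cells, against 13.12, 12.78 and 12.76 in control cells. The groups were apart at both times, with falls of 1.92 ± 0.35 at 2 h and 1.06 ± 0.35 at 4 h, with adjusted p of 0.00113 and 0.0312. Epsti1 was called at 4 h alone, with a fall of 1.05 ± 0.13 (adjusted p = 9.59e-06) after a change of -0.19 ± 0.13 at 2 h (adjusted p = 0.532). Rtp4, a chaperone of membrane receptors, fell at both times, by 0.74 ± 0.14 (adjusted p = 0.00216) and 0.58 ± 0.14 (adjusted p = 0.00607). Cd274, the checkpoint ligand PD-L1, changed by -0.68 ± 0.29 and -0.25 ± 0.29 (adjusted p = 0.205 and 0.607). Ifi35 changed by -0.64 ± 0.23 at 4 h (adjusted p = 0.054, and 0.00561 with the block). Xaf1 lay below the floor on all arrays. The Ifi47 call at 4 h was lost without any one of the 3 control replicates, treated replicate 2 or treated replicate 3 (adjusted p = 0.0548 to 0.131).

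The genes called at 2 h and at 4 h were only partly the same. Of 23 members called lower at either time, 9 were called at both, which was 69.2% of those called at 2 h and 47.4% of those called at 4 h. These 9 were Ifit3, Ifi47, Samd9l, Isg20, Ifih1, Rtp4, Trim30a, Ube2l6 and Parp9. Among them, Parp9 lay near the floor, and Isg20 lay below it on all treated arrays at 2 h. The 4 called at 2 h alone were Cmpk2, Mx2, Ifit2 and Daxx. The 10 called at 4 h alone were Dhx58, Oas2, Oas1a, Oas3, Uba7, Epsti1, Zbp1, Bst2, Sp100 and Parp12. With the replicate block, 17 of the 36 members called lower at either time were called at both. Overlap over all features is not given here. The arrays of 2 h and 4 h are separate, but a call at one time alone does not show a different effect.

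The difference itself was tested as the inhibitor effect at 4 h minus that at 2 h, a comparison added after the values had been seen. It was below 0, meaning a larger measured fall at 4 h, and called in 3 members (1.06% of features were called lower): Isg20 by -1.45 ± 0.31 (adjusted p = 0.0185), Oas3 by -0.99 ± 0.22 (adjusted p = 0.0272) and Epsti1 by -0.86 ± 0.19 (adjusted p = 0.0243). At 2 h Isg20 lay below the floor on all treated arrays and Oas3 at or near it in both treatments, so the size of their 2 h effect is uncertain. With a constant background subtracted limma called none of the 3 (adjusted p = 0.342 for Isg20, 0.125 for Oas3 and 0.0507 for Epsti1). No member was called above 0, where 0.354% of features were, and 5 had an unadjusted p under 0.05 in that direction. Mx2 had a difference of 2.53 ± 0.90 (adjusted p = 0.203) and Cmpk2 of 2.42 ± 0.84 (adjusted p = 0.195). With the replicate block 7 members were called below 0 (3.16% of features) and 2 above (2.44% of features), the 2 being Mx2 (adjusted p = 0.0426) and Cmpk2 (adjusted p = 0.0189). Without replicate 1, 11 were called in each direction, with Mx2 at 3.27 (adjusted p = 5.9e-07), Cmpk2 at 2.81 (6.3e-06) and Rsad2 at 2.51 (0.00111) furthest above 0 and Isg20 at -1.80 (8.16e-05) furthest below. At 4 h Rsad2 averaged 14.92 in treated cells and 14.95 in control cells, and Cmpk2 13.9 and 14.16. These levels are near the top of the scale, where arrays can compress differences, and the part of this in their differences was not tested. Again the share of all features is not given for the fit without replicate 1. The 3 calls of the unblocked fit were each lost without some single arrays, among them control replicate 1 at 4 h (adjusted p = 0.0614 for Isg20, 0.0881 for Oas3 and 0.0759 for Epsti1). The count was also 0 without control replicate 2 or 3 at 2 h or treated replicate 3 at 4 h, and 1 without treated replicate 2 at 2 h or at 4 h. Without treated replicate 1 at 2 h, 2 members were called above 0.

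Set against the effect at 0 h, the inhibitor effect differed in 1 member at 2 h (0.646% of features lower) and in 8 at 4 h (3.85% of features lower). None was called above 0 at either time, where 0.232% and 4.17% of features were, and at an unadjusted p under 0.05 limma had 0 and 1. The 1 at 2 h was Samd9l, with -1.62 ± 0.37 (adjusted p = 0.041). The 8 at 4 h were Isg20 (-2.28), Dhx58 (-1.68), Oas1a (-1.15), Zbp1 (-1.07), Epsti1 (-1.06), Oas3 (-1.0), Ube2l6 (-0.86) and Sp100 (-0.73), with adjusted p between 9.5e-05 for Isg20 and 0.029 for Oas1a. With the replicate block the counts were 5 at 2 h (1.97% of features) and 18 at 4 h (7.88%). Without replicate 1 they were 14 and 23, for which the share of all features is not given. The Samd9l call was lost without any one of 8 arrays at 0 h or 2 h, all but treated replicate 1 at either time and control replicates 2 and 3 at 2 h (adjusted p = 0.0573 to 0.123). The Oas1a call was lost without any one of 7 arrays (adjusted p = 0.0523 to 0.085), namely treated replicates 1 and 2 and control replicates 2 and 3 at 0 h, and control replicate 1 and treated replicates 2 and 3 at 4 h. The count at 2 h was 5 without treated replicate 1 and 2 without control replicate 2 or 3 of that time.

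The genes that make and relay interferon beta were taken from a list chosen by known function, of which 18 were on the array and 17 were tested; Ifnar1 lay below the floor. Between treatments 1 of 17 was called lower at 1 h, 4 lower at 2 h, and 3 lower and 1 higher at 4 h, while 0.78%, 4.22% and 10.2% of all features were called lower at these times and 12.6% higher at 4 h. In the fit with the replicate block the counts were 1 lower at 1 h, 5 lower at 2 h, and 6 lower and 2 higher at 4 h. Of all features, that fit called 1.72%, 7.77% and 15.4% lower at these times and 19.7% higher at 4 h. Ifnb1 was called at all 3 times. It had 10.12, 7.33 and 7.27 in treated cells at 1 h, against 12.77, 10.49 and 10.48 in control cells. At 2 h it had 8.70, 10.41 and 8.94 in treated cells, against 11.52, 13.16 and 11.92 in control cells. At 4 h it was below the floor on all treated arrays, at 6.17, 6.15 and 6.41, against 9.10, 9.77 and 9.09 in control cells. No treated array reached the control range at any of the 3 times. The falls were 3.01 ± 0.64 at 1 h and 2.85 ± 0.64 at 2 h, with adjusted p of 0.015 and 0.0077, and at 4 h Ifnb1 was at least 7.28-fold lower in treated cells (adjusted p = 0.00149). The 1 h call was lost without control replicate 1 (adjusted p = 0.149), treated replicate 2 (0.119) or treated replicate 3 (0.14). Its part in the changes of the members was not tested.

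Downstream of the receptor, Irf9, the DNA-binding partner of Stat2, had 9.13, 8.24 and 7.91 in treated cells at 2 h, against 9.998, 9.21 and 9.14 in control cells. Its groups were apart by a narrow margin, and it fell by 1.02 ± 0.29 (adjusted p = 0.0359). At 0 h Irf9 had averaged 8.50 in treated cells and 8.81 in control cells, a difference that was not called. Irf7, which amplifies interferon production, had 7.60, 7.08 and 6.58 in treated cells at 2 h, against 9.00, 7.59 and 7.61 in control cells, a change of -0.97 ± 0.31 (adjusted p = 0.0604, and 0.00217 with the block). Stat2 changed by -0.58 ± 0.39 at 2 h and 0.08 ± 0.39 at 4 h, with adjusted p of 0.5 and 0.924, and Irf1 by -0.63 ± 0.37 and -0.31 ± 0.37 (adjusted p = 0.413 and 0.622). Socs1, a feedback inhibitor of the receptor's kinases, fell by 0.75 ± 0.17 at 2 h and 0.78 ± 0.17 at 4 h, with adjusted p of 0.00691 and 0.00177. The receptor gene Tlr4 fell by 0.97 ± 0.24 at 2 h and 1.0 ± 0.24 at 4 h, with adjusted p of 0.0149 and 0.00462. It had already averaged 9.56 in treated cells and 10.03 in control cells at 0 h, and 9.34 and 9.86 at 1 h, neither difference called. Mavs, the adaptor of the RNA sensors, rose by 0.49 ± 0.11 at 4 h (adjusted p = 0.00241). With the block alone, Ikbke (-0.58, adjusted p = 0.000461), Irf9 (-0.58, adjusted p = 0.014) and Irf7 (-0.53, adjusted p = 0.0457) were called lower at 4 h and Jak1 (0.46, adjusted p = 0.00438) higher. Ticam1, Ticam2, Tbk1, Irf3, Ifnar2, Tyk2 and Socs3 passed at none of the 4 times in either fit. The Irf9 call was lost without control replicate 1 (adjusted p = 0.21), treated replicate 2 (0.128) or treated replicate 3 (0.205), that of Socs1 at 2 h without control replicate 1 (0.0596) or treated replicate 3 (0.0582), and that of Tlr4 at 2 h without treated replicate 1 (0.0838) or control replicate 2 (0.0891).

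**Figure D4:**
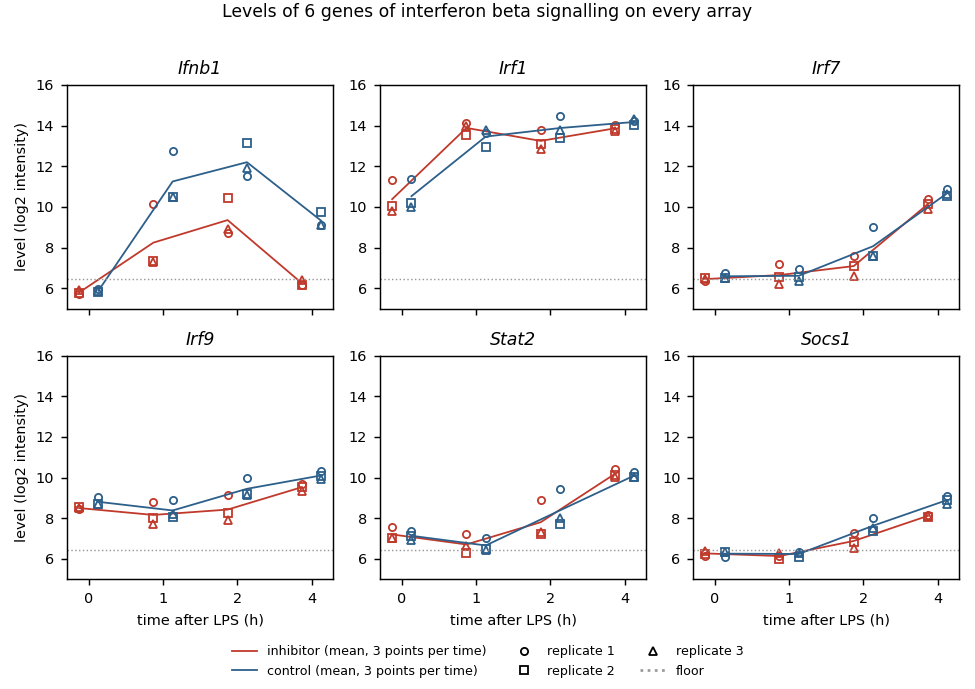
Levels (log2 intensity, vertical axis) of 6 genes of interferon beta signalling at 0, 1, 2 and 4 h after LPS on every array, with inhibitor-treated cells left of control cells at each time, lines through the means of 3 replicates and the floor dotted. Ifnb1 is lower on every treated array than on every control array at 1, 2 and 4 h, while Irf1 and Stat2 overlap at 1 and 2 h.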

How the data were processed

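RNA of 24 macrophage samples was hybridised to single-colour Illumina arrays; per the labels' protocols it was purified on Qiagen RNeasy columns and biotin-labelled with the Ambion MessageAmp kit. The authors deposited 1 processed value for each of 25697 probes and each array. No label or header names its scale. Its values lie between 5.354 and 15.172, and these deposited values were taken as log2 intensities. The submitters' processing notes name limma, with no version, and no source used here describes the normalization further. The table of non-normalized signals was left out, since its 72 value columns are named by array position and cannot be matched to the labels, so the array precision rests on the 3 replicates a group and no detection p-values were available.

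Probes above the floor of 6.455 on all 3 arrays of at least 1 group passed the filter (10891 probes). The passing probe of highest mean level stood for its gene, giving 8203 features, 7584 of them with a symbol of the platform annotation. Of the members, 11 had more than 1 passing probe, and in 0 were probes called in opposite directions. limma 3.58.1 (R 4.3.3; lmFit, then eBayes) estimated the 8 group means from all arrays together, with 16 residual degrees of freedom and a median residual SD of 0.168. Tests were two-sided, and the Benjamini-Hochberg adjustment was made separately for each contrast over all features. The procedure was tested on simulated data. Where all arrays of a group lay below the floor, the fold was computed from the mean of the other group against the floor and is a bound ("at least") for that mean.

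Replicate numbers come from the labels. Deviations of same-numbered arrays from their group means correlated between groups in all 36 pairs (r = 0.106 to 0.847, and 0.563 to 0.847 between treatments at one time), so the numbers were taken to pair the samples. The fit without a block was the planned one. The blocked value is printed where it changes a call between treatments or moves a count of all members by over 1.5 times. The labels call the replicates biological without saying what each came from, so p-values measure the spread between these samples. Arrays of replicate 1 deviated from their group means by 0.199 to 0.246 (root mean square over features), those of replicate 2 by 0.116 to 0.173 and those of replicate 3 by 0.138 to 0.185.

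Array-by-array values are given for the 5 largest called falls and rises at each time, and for the member of each role with the largest LPS rise at 4 h in control cells; Rsad2, Usp18, Samd9l, Trim25 and genes of interferon signalling were added after their values were seen. Members, lists and tests were chosen with earlier results of these data known. Alternatives changed the probe filter, the centring, the normalization, the background, the weighting of arrays, the probe summary, the arrays fitted, the block and the arrays left out.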

Additional observations from a re-analysis of the deposited data

Results flagged for a closer look

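The inhibitor effect differed between times in the following members, by limma's test of the difference itself in the fit without a block. Between 2 h and 0 h it differed in Samd9l by -1.62. Between 4 h and 0 h it differed in Isg20 by -2.28, in Dhx58 by -1.68, in Oas1a by -1.15, in Zbp1 by -1.07, in Epsti1 by -1.06, in Oas3 by -1.0, in Ube2l6 by -0.86 and in Sp100 by -0.73. Between 4 h and 2 h it differed in Isg20 by -1.45, in Oas3 by -0.99 and in Epsti1 by -0.86, a comparison added after the values had been seen. All these differences are on the log2 scale, with 3 arrays in each of the 4 groups compared. A negative value means that treated cells lay further below control cells at the later time. At 0 h Isg20 and Oas1a lay below the floor on all arrays of both treatments, as did Oas3 except on control replicate 1, at 6.52. At 2 h Isg20 lay below it on all treated arrays, and Oas3 averaged 6.27 in treated cells and 6.33 in control cells.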

How the results depend on the processing

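No member changed direction while called under any alternative run. Counts of members called lower between treatments were 13 at 2 h and 19 at 4 h. Shares of all features are given for the main and the blocked fit alone, so the other counts are not set against them. With the replicate block they were 27 and 26, with 1 higher at 4 h and 1 lower at 1 h; array weights, whose estimation stopped short of its tolerance, gave 26 and 23, also with 1 higher at 4 h and 1 lower at 1 h. Features above the floor on all 24 arrays gave 7 and 12, with fewer members tested. Only the arrays of the contrast gave 1 at 2 h and 23 at 4 h, with 1 higher at 4 h. Counts ran from 5 to 23 at 2 h, 13 to 27 at 4 h and 0 to 3 at 1 h when replicates were left out, and the count called higher at 4 h from 0 to 1. The effect relative to 0 h was called lower in 1 member at 2 h and 8 at 4 h. The replicate block gave 5 and 18, array weights 16 and 20 with 1 higher at 4 h, the stricter floor 0 and 4, and only the contrast's arrays 0 and 14. No filter on dim probes gave 0 at 2 h, housekeeping centring 13 at 4 h, and leaving out replicates 0 to 14 and 7 to 23. The effect at 4 h minus that at 2 h was called lower in 3 members and higher in 0. It was 7 and 2 with the replicate block, 7 and 2 with array weights, 1 lower with the stricter floor, and 0 lower with background subtracted or only the contrast's arrays. Leaving out replicates gave 0 to 11 in either direction. For LPS in treated cells, the 2 higher at 1 h became 1 without a filter and 0 with only the contrast's arrays (0 to 2 without replicates), and the 11 at 2 h became 7 with only the contrast's arrays (7 to 11 without replicates). A single member was called lower in treated cells at 1 h with the replicate block and at 2 h with the replicate block, array weights or only the contrast's arrays (0 to 1 without replicates at either time). In control cells 1 was lower at 2 h with array weights (0 to 1 without replicates), and the 2 higher at 1 h became 2 to 4. The causes were not tested. The replicate block moved no other count by over 1.5 times. Centring on 8 housekeeping genes moved the median of all features by -0.12 between treatments at 4 h, by 0.16 for LPS at 4 h in control cells and by -0.19 for the 4 h effect relative to 0 h, and cyclic loess moved it by 0.13 for LPS at 4 h in control cells. With a constant background subtracted, the changes at 4 h were -2.85 in Isg20, -1.52 in Oas1a and -1.53 in Oas3, and the Isg20 difference between 4 h and 2 h was -1.16 (adjusted p = 0.342), so sizes near the floor depend on the background.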
